A study of Mus musculus with 21 samples.

Results

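The 200 most abundant transcripts of mouse liver are described here, as rows of a table of sequencing counts. They were chosen by their level in wild-type liver: each count was expressed per 1000000 counts of its library (CPM), the values were averaged over the 13 wild-type libraries, and the 200 highest of the table's 45708 rows were taken. Of those 45708 rows, 23772 had a count in any library. The table gives no gene name or identifier for a row, so rows are called by their number from the top, and no row was given a name from its place or its level. For the same reason no marker of hepatocytes or of any other liver cell could be looked up, and no sequence is shown. The wild-type means chose the rows, so their level and rank are a description with no test.

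Polyadenylated RNA was read from whole, snap-frozen livers of 21 C57BL/6J mice, 8 carrying the genotype label NDI1 and 13 the label Wild-Type. All mice were on a standard chow diet and aged 12 to 16 weeks, and no library has a metformin label. NDI1 is the NADH dehydrogenase of yeast mitochondria, which hands electrons from NADH to ubiquinone without complex I; the study used it to ask whether complex I is where metformin acts on blood glucose. The labels give neither the promoter nor the cell type that drives NDI1, and in bulk tissue fewer cells of a type and less RNA per cell cannot be told apart. Mouse numbers fall into 2 series, which the labels do not call batches: series 1 has the first 5 replicates of each genotype, and series 2 has NDI1 replicates 6 to 8 with wild-type replicates 6 to 13.

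A liver's messenger RNA is dominated by hepatocytes, which make most of the proteins of blood plasma. A small set of transcripts for secreted proteins (albumin, apolipoproteins, protease inhibitors, fibrinogen chains and, in mice, major urinary proteins) is known to fill much of a liver library, together with transcripts of enzymes for drug, lipid and amino acid metabolism. Several of these families sit as clusters of near-identical copies in the genome, and reads from such copies are hard to assign to a single gene. This is background on the tissue, and none of it is a statement about a numbered row.

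Library totals ran from 10.7 M to 20.5 M counts, with 18.6 ± 0.874 M in series 1 (SD, n = 10) and 12.3 ± 1.05 M in series 2 (SD, n = 11). NDI1 replicate 7 stood apart: its median absolute log2 distance from the wild-type median over the 200 rows was 0.26, against 0.16 to 0.19 in the other NDI1 libraries and 0.09 to 0.19 in the wild-type libraries. The wild-type libraries helped to form that median, which draws them towards it. Depth was no limit for these rows. The lowest count of any of the 200 rows in any library was 1157, and all 200 passed the filter on low counts.

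In wild-type liver the 200 rows held 60.6 ± 1.5% of all counts (SD, n = 13). The lowest wild-type library had 58.7%, the median 60.5% and the highest 63.5%. The counts were concentrated in few rows: the first 3 held 10.0%, the first 10 held 17.7%, the first 50 held 40.4% and the first 100 held 51.3%. It took 20 rows to reach 25% of the wild-type mean counts and 92 rows to reach 50%. In single libraries, 50% of the counts was reached with 74 to 103 rows in wild-type and 74 to 105 rows in NDI1. Mean wild-type levels were over 10000 CPM for 7 rows, at least 5000 CPM for 32 and under 1000 CPM for 67, with a median of 1468 CPM.

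**Figure D1:**
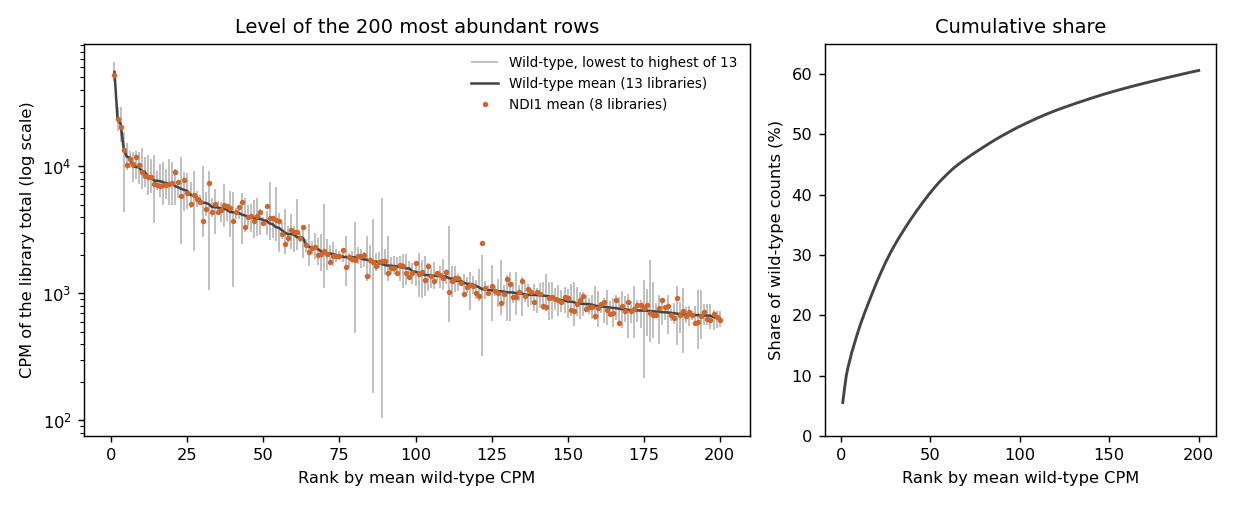
Left, CPM (log scale) against rank by mean wild-type CPM: the line is the wild-type mean, grey bars run from the lowest to the highest of 13 wild-type libraries, and points are means of 8 NDI1 libraries. Right, the cumulative wild-type share, which reaches 17.7% at rank 10, 51.3% at rank 100 and 60.6% at rank 200.

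Row 7258 was the most abundant row in every wild-type library. It had 55254 ± 5976 CPM in wild-type mice (SD, n = 13), which is 5.53 ± 0.598% of all counts. Its lowest wild-type library had 46284 CPM, the median 54313 and the highest 66423. In NDI1 mice it ran from 37920 CPM in replicate 7 through a median of 54955 to 59815. Replicate 7 lay below every wild-type library, and the other 7 NDI1 libraries lay within the wild-type range.

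Row 18001 came next with 23442 ± 2813 CPM and row 515 followed with 21637 ± 3571 CPM, both in wild-type mice (SD, n = 13). Row 20670, the fourth, had 13912 ± 4055 CPM and was the least even of the first 10, from 4407 CPM in wild-type replicate 10 to 18722 CPM in replicate 8. The steps below it were small against the spread between mice. Row 9043 had 11908 ± 1708 CPM and row 5070 had 11709 ± 1044 CPM, row 18019 had 10050 ± 1389 CPM, row 8768 had 9871 ± 1463 CPM, row 16580 had 9821 ± 1452 CPM and row 18007 had 9199 ± 1883 CPM. From row 9043 to row 18007, neighbouring rows in this order differed by less than the SD of either, except at the step from row 5070 to row 18019. The same 10 rows were the first 10 in the NDI1 means, with rows 9043 and 8768 at NDI1 ranks 8 and 5.

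At the lower end the limit at rank 200 fell where levels ran together. The last rows inside were row 3949 with 642.9 ± 59.5 CPM and row 132 with 637.4 ± 60.6 CPM (SD, n = 13). The first rows outside were row 14054 with 637.1 ± 57.7 CPM and row 5513 with 631.5 ± 149 CPM. These 4 rows differed by far less than their spread between mice. Membership was still largely shared by the libraries: 151 of the 200 rows were among the 200 highest of every wild-type library, and 144 of every library of both genotypes. Each wild-type library had 185 to 193 of them in its own first 200, and each NDI1 library 184 to 192.

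Lists made from separate mice had most rows in common. The 200 highest rows by NDI1 mean included 194 of the 200, which is 97.0% of either list, and the other 6 had NDI1 ranks from 202 to 216. The first 50 of both genotypes shared 45 rows. The 200 highest rows from the wild-type libraries of series 1 alone and from those of series 2 alone shared 191.

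The 200 rows differed widely in how much their levels varied between wild-type libraries. The coefficient of variation (CV, the SD over the mean of CPM) had a median of 14.6% over the 200 rows (jackknife SE over libraries 1.34 percentage points), with quartiles of 9.73% and 21.1% and a range from 4.19% to 97.6%. Counting alone would give a median CV of 0.695% and at most 1.06%, and it made up a median of 0.202% of the variance between libraries, so depth did not limit these values. Each mouse has 1 library, and spread between mice and between library preparations cannot be told apart. Over the 11814 rows abundant enough to be tested, the median CV was 21.03%, with counting alone at 7.86%. The next 200 rows by level had a median of 12.2%, so among abundant rows the first 200 were not the most even.

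Level within the list said little about evenness. The median CV was 14.6% for ranks 1 to 10, 17.7% for ranks 11 to 50, 12.7% for ranks 51 to 100 and 14.4% for the last 100 ranks. Of the 200 rows, 149 lay in the lower 50% of all tested rows by CV, 56 in the lowest 10% and 6 in the highest 10%. The highest wild-type library was over 2 times the lowest for 53 rows, over 5 times for 8 and over 10 times for 2. Part of the spread was between the series: the median CV was 12.1% within the wild-type libraries of series 1 and 12.7% within those of series 2. In NDI1 mice the median CV was 14.3%, or 13.3% without replicate 7. The CV was larger in NDI1 than in wild-type for 98 of the 200 rows, and for 74 without replicate 7.

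**Figure D2:**
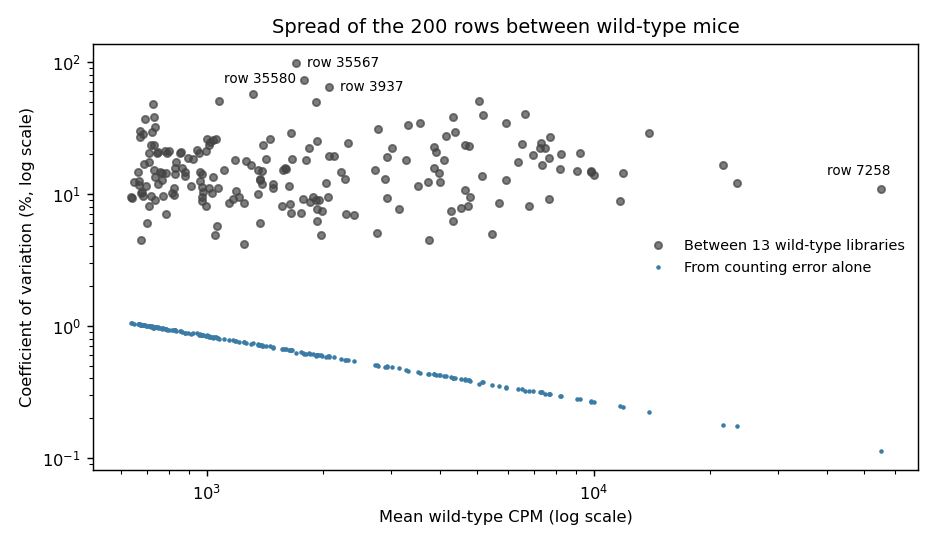
CV between the 13 wild-type libraries (dark circles) and the CV that counting error alone would give (small points) for each of the 200 rows, against mean wild-type CPM, both axes on log scales. All the circles lie above the counting line; rows 35567, 35580 and 3937 are the most variable, and the most abundant row, 7258, has a CV of 10.8%.

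The most even row was row 10581, with 1251 ± 52.3 CPM and a CV of 4.19% between wild-type mice. Its lowest wild-type library had 1162 CPM, the median 1256 and the highest 1312. Row 6789 (3756 ± 167 CPM, CV 4.45%) and row 9420 (676 ± 30.1 CPM, CV 4.46%) came next, both means ± SD over the 13 wild-type mice. The lowest and highest wild-type libraries of these 3 rows differed by 1.13, 1.15 and 1.16 times.

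At the other end stood rows 35567, 35580 and 3937. Row 35567 had 1701 ± 1660 CPM in wild-type mice, with 105 CPM in replicate 10, a median of 903 and 5607 CPM in replicate 3, a 53.6-fold range. It ranked as low as 1169 in a wild-type library and was among the first 200 in 8 of the 13. Row 35580 had 1781 ± 1305 CPM, with 166 CPM in replicate 10, a median of 1426 and 3853 CPM in replicate 8. These 2 rows lie 13 rows apart in the table and shared their lowest mouse. Row 3937 had 2072 ± 1328 CPM, from 1107 CPM through a median of 1490 to 5041 in replicate 6. Its CV was 12.1% within series 1 and 66.3% within series 2.

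Across all 21 libraries the log2 CPM of rows 35567 and 35580 moved together, with Pearson's r of 0.96 and Spearman's rho of 0.96. They were each other's most alike row among the 200 by this measure, followed by row 20665 for row 35567 (r = 0.91) and row 22625 for row 35580 (r = 0.91). The row most opposite to both was row 7258, with r of -0.85 and -0.84. The most alike row to row 3937 was row 3451 (r = 0.77, rho = 0.88). Of the other members, 5 had r over 0.8 with row 35567, 2 had r under -0.8, and 170 lay between -0.5 and 0.5. These are descriptions over libraries that share depth and a total of counts, in which a higher share of some rows lowers that of others. Nothing about shared control or function of these rows was tested.

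**Figure D3:**
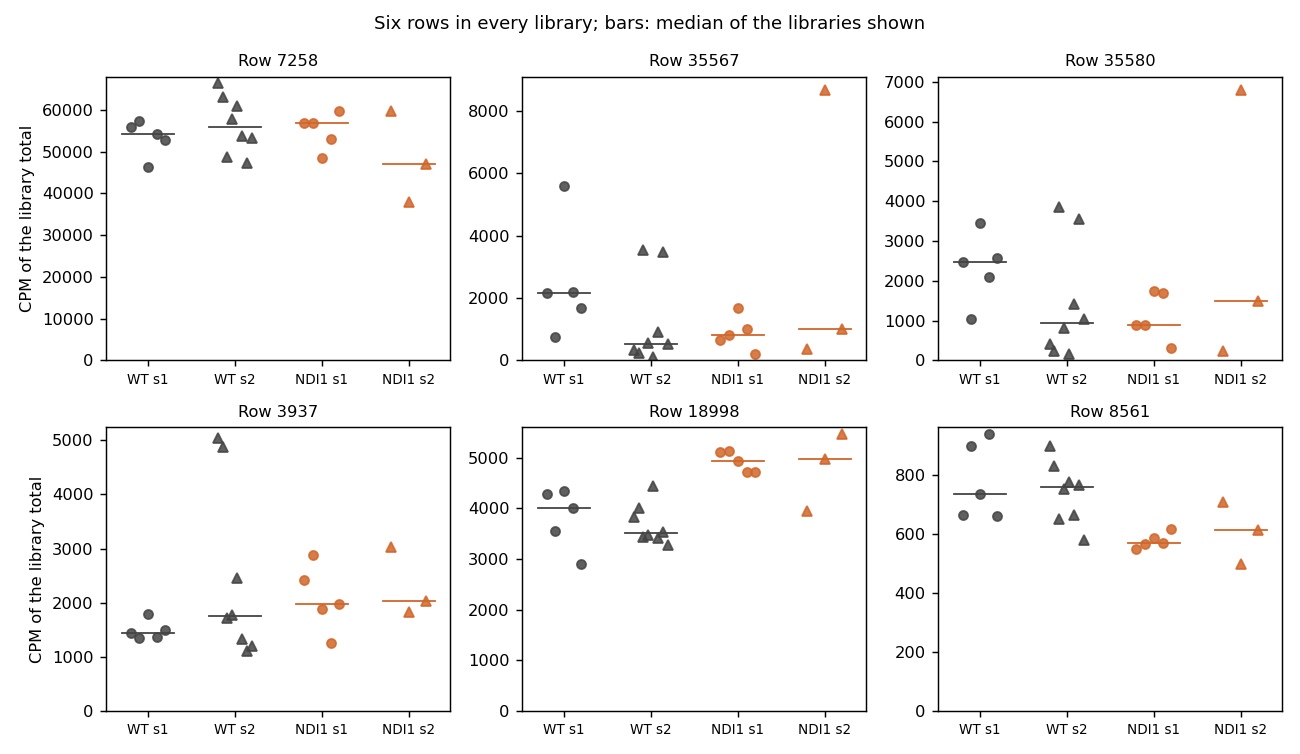
CPM of 6 rows in every library (circles, series 1; triangles, series 2; bars, medians of the libraries shown), for wild-type (WT) and NDI1 mice in series 1 (s1) and series 2 (s2), with each axis from 0. Rows 35567 and 35580 move largely together, with NDI1 replicate 7 highest in both, though their highest wild-type libraries differ. Row 7258 is lowest in NDI1 replicate 7, and rows 18998 and 8561 overlap between the genotypes.

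Abundant rows lay close together in the table more than once. In all, 30 stretches held at least 2 of the 200 rows with gaps of at most 20 rows, and 7 held at least 3. These stretches were picked after their values were seen and are given as values. How many would arise from rows placed at random was not worked out, so the number of short stretches is no sign of clustering. The longest, from row 17987 to row 18022, held 15 of the 200 rows within 36 table rows, including rows 18001, 18019 and 18007 of the first 10. Together these 15 rows had 10.0 ± 1.52% of wild-type counts (SD, n = 13). The next were rows 3917 to 3952, with 6 members and 1.32 ± 0.124%, rows 22624 to 22632, with 5 members and 2.15 ± 0.393%, and rows 8765 to 8768, with 4 members and 1.36 ± 0.199%. The order of the rows in the table is not explained in the sources used here. Whether reads were split between near-identical copies in a stretch was not tested, so the split among its rows is uncertain. Of the 200 rows, 96.0% stood in the upper 50% of the table, as did 93.7% of all tested rows.

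The share held by the long stretch differed between the series in both genotypes. In series 1 its wild-type share was 8.25%, 9.03%, 8.37%, 8.95% and 7.71% in replicates 1 to 5, and its NDI1 share was 9.44%, 9.63%, 8.77%, 8.93% and 8.13%. In series 2 the wild-type libraries ran from 10.2% to 13.3%, with a mean of 11.0 ± 1.01% (SD, n = 8), and the NDI1 libraries had 11.9%, 10.7% and 12.1% in replicates 6 to 8. No library of series 1 reached the lowest of series 2. The remaining members of the 200 held 50.98 ± 0.819% of wild-type counts in series 1 (SD, n = 5) and 50.4 ± 0.960% in series 2 (SD, n = 8), which overlap.

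The summed share of the 200 rows differed between the genotypes by less than the spread between mice. NDI1 libraries had 60.5 ± 1.58% (SD, n = 8), from 58.6% through a median of 60.2% to 63.0%, against 60.6 ± 1.5% in wild-type. Averaged within series, NDI1 was 0.329 percentage points higher, with a 95% interval from -0.590 to 1.31 (exact two-sided permutation test within series, p = 0.460, Benjamini-Hochberg adjusted over 5 shares 0.761). The difference was 0.0279 points in series 1 (exact p = 0.944) and 0.831 points in series 2 (exact p = 0.364). Without NDI1 replicate 7 it was 0.143 points, and without the series it was -0.124 points, with the direction turned. P-values here give the part of all regroupings of these mice within series with a difference at least as large. The litters and harvest days of the mice are not stated.

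The blocks of rank gave no difference past the threshold either. NDI1 minus wild-type was -0.182 points for ranks 1 to 10 (interval -0.957 to 0.567), 0.446 points for ranks 11 to 50 (-0.323 to 1.29), 0.00451 points for ranks 51 to 100 (-0.332 to 0.349) and 0.0611 points for the last 100 ranks (-0.156 to 0.251). Their adjusted exact permutation p-values were 0.761 or 0.980. Single libraries moved these values. Leaving out each in turn gave -0.345 to 0.0223 points for ranks 1 to 10 and 0.142 to 0.623 points for ranks 11 to 50, with the 0.0223 and the 0.142 without NDI1 replicate 7. It gave -0.148 to 0.128 points for ranks 51 to 100 and 0.0064 to 0.127 points for the last 100 ranks. These intervals limit any shift in the summed share of ranks 1 to 10, itself 17.7 ± 0.823% in wild-type and 17.3 ± 0.862% in NDI1, to under 1 point either way.

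**Figure D4:**
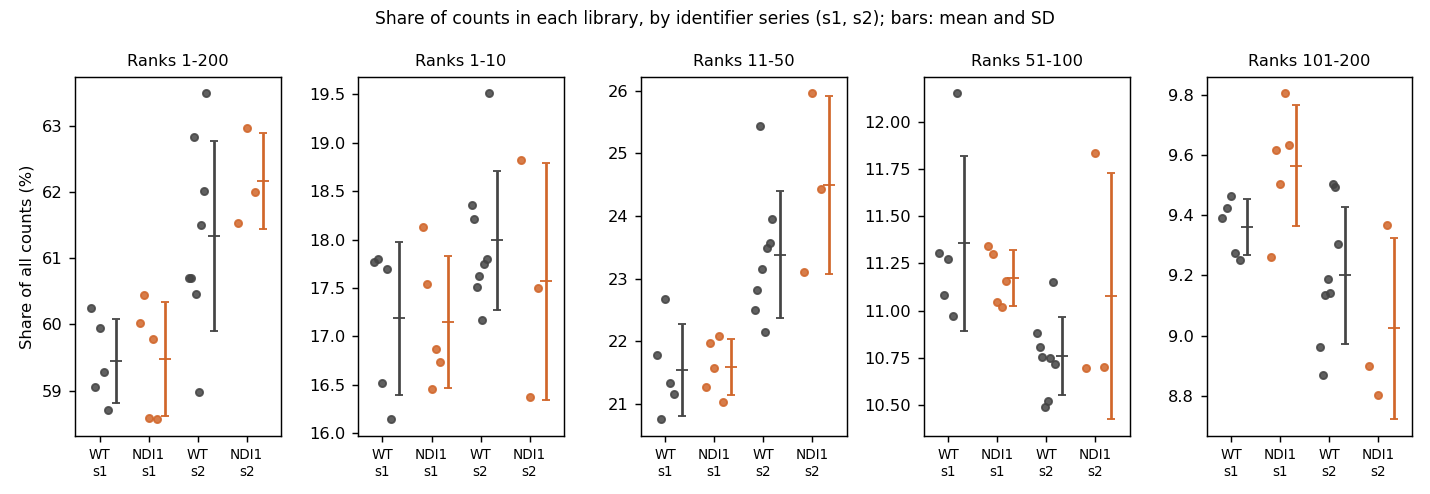
Share of all counts in each library for the 200 rows and for 4 blocks of rank, by genotype (WT, NDI1) and identifier series (s1, s2); dots are libraries, bars are the mean and SD, and the vertical axes do not start at 0. Genotypes overlap within each series, while most series 2 libraries sit above those of series 1 for ranks 11 to 50.

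Row by row, none of the 200 passed the test between NDI1 and wild-type. Differences were estimated with edgeR's quasi-likelihood model over all 11814 tested rows with the series as a term, and p-values were adjusted over all of them. No member had an adjusted p under 0.05 (0.0254% of all tested rows did), and the smallest was 0.0789. At an unadjusted p under 0.05 there were 34 members, or 17.0%, beside 9.96% of all tested rows and 18% of the next 200 rows by level. They were 19 higher and 15 lower in NDI1, beside 4.66% and 5.31% of all tested rows. Fitted in series 1 alone there were 27 such members (6.93% of all tested rows), and in series 2 alone 20 (8.03%). Leaving out NDI1 replicate 8 lowered the 34 to 20, a fit for which the share of all tested rows is not given here. Runs of close mouse numbers as terms gave 55 (14.7% of all tested rows). With limma-voom also 0 members passed (0.0762% of all tested rows), and with DESeq2 3 did (0.888%). For no member were all NDI1 libraries above or below all wild-type ones, as for 0.0169% of all tested rows.

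The estimates of the 200 rows centred near those of all tested rows. The median log2 fold change of the 200 rows was -0.0037, beside 0.0013 over all tested rows, with 97 rows higher and 103 lower in NDI1. The scaling of the libraries (TMM) brings the typical row near 0, so a change shared by most rows could not be seen. With library totals alone the medians were -0.0129 and -0.0095, with 90 of the 200 rows higher and 110 lower. After TMM scaling the estimates ran from -0.48 to 0.86 on the log2 scale. Fitted differences were within 1.1-fold for 130 rows, over 25% higher or 20% lower for 13, and beyond 1.5-fold for 1. Fitted in each series separately, 124 of the 200 rows (62%) had the same sign in both, beside 55.9% of all rows tested in both.

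The bounds on the genotype difference were narrow for most of these rows. The 95% interval lay wholly within 1.1-fold of equality for 11 rows, between 20% lower and 25% higher (the 25% limit) for 118, within 1.5-fold for 178 and within 2-fold for 196. Over all tested rows these limits were met by 1.72%, 38.3%, 70.4% and 90.7%. The next 200 rows by level met the 25% limit 142 times and the 1.5-fold limit 179 times, so narrow bounds were not particular to the first 200. With intervals widened to hold jointly over all tested rows (Bonferroni), 5 members stayed within the 25% limit, 85 within 1.5-fold and 163 within 2-fold, beside 0.584%, 21.5% and 54.7% of all tested rows.

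**Figure D5:**
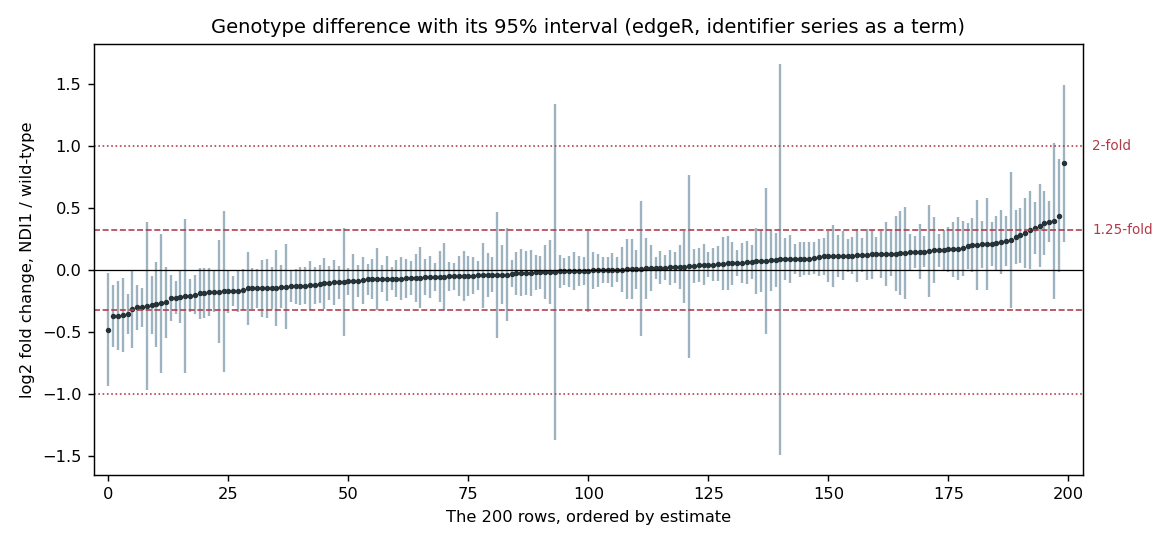
Fitted log2 fold change, NDI1 over wild-type, with its 95% interval for each of the 200 rows, ordered by estimate; dashed lines mark 20% lower and 25% higher, dotted lines 2-fold either way. The intervals of 118 rows lie within the dashed lines and those of 4 rows cross a dotted line.

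The width of an interval followed the spread between mice. This is built in to a large part, because the wild-type libraries that give the CV also enter the fit that gives the interval. The median interval reached 1.13-fold either side of its estimate, beside 1.21-fold over all tested rows. In the 50 rows with the lowest wild-type CV it reached 1.09-fold, and in the next groups of 50 rows 1.12-fold, 1.16-fold and 1.26-fold. The 25% limit was met by 48, 36, 28 and 6 of the 50 rows in these groups. The narrowest intervals belonged to row 1738, at 1.01-fold (0.951 to 1.08), and row 19058, at 0.954-fold (0.894 to 1.02). The intervals of the even rows named above were 0.896 to 1.04 for row 10581, 0.869 to 1.01 for row 6789 and 0.945 to 1.09 for row 9420.

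Among the 10 most abundant rows, 6 had intervals within the 25% limit. Row 7258 was at 0.952-fold in NDI1 (95% interval 0.853 to 1.06), with 5.25 ± 0.758% of NDI1 counts (SD, n = 8). Row 18001 was at 1.07-fold (0.971 to 1.17) and row 515 at 0.880-fold (0.763 to 1.01). Row 8768 was the sole one of the 10 with an unadjusted edgeR p under 0.05 (p = 0.0330, adjusted p = 0.461). It was at 1.16-fold (1.01 to 1.32), with a wild-type median of 9653 CPM and an NDI1 median of 12304 CPM. These medians take no account of the series, which the fit does. Fitted alone, series 1 gave 1.18-fold (0.962 to 1.45) and series 2 gave 1.13-fold (0.935 to 1.36), both with intervals that include 1. Row 20670 had the widest bounds of the 10, at 0.975-fold in NDI1 (0.685 to 1.39). The series went opposite ways for this row. Fitted alone, series 1 gave a log2 fold change of -0.581 (-0.987 to -0.174). Series 2 alone gave 0.535 (-0.271 to 1.34). Its adjusted p was at least 0.592 in all 33 alternative fits, and no member passed the interaction test given below. The other 5 rows ran from 0.882-fold for row 9043 to 1.08-fold for row 18019, with every interval including 1.

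The largest estimates upward belonged to rows 8766 and 4914. Row 8766 ran from 320 CPM through a median of 948 to 2010 in wild-type and from 762 through 2379 to 4028 in NDI1, with 5 of 8 NDI1 libraries above all wild-type ones. All 5 belong to series 1. The fit gave 1.82-fold (1.17 to 2.82), with an edgeR adjusted p of 0.391. Fitted alone, series 1 gave 2.38-fold (1.28 to 4.44) and series 2 gave 1.3-fold (0.732 to 2.30), and the interaction did not pass (edgeR adjusted p = 0.937). Row 4914 was at 1.36-fold (0.990 to 1.86, edgeR adjusted p = 0.505), with medians of 663 CPM in wild-type and 981 CPM in NDI1.

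The largest estimates downward belonged to rows 44527 and 15503. Row 44527 ran from 2767 CPM through a median of 4494 to 10099 in wild-type and from 2159 through 3693 to 6331 in NDI1. The fit gave 0.718-fold (0.522 to 0.986, edgeR adjusted p = 0.523). This estimate rested on series 2, which alone gave 0.452-fold (0.295 to 0.693), where series 1 gave 1.03-fold (0.762 to 1.4). The difference between the series did not pass (interaction, edgeR adjusted p = 0.853). Row 15503 was at 0.774-fold (0.651 to 0.921, edgeR adjusted p = 0.306), with medians of 1003 CPM in wild-type and 842 CPM in NDI1.

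The 3 rows below that edgeR did not call were called by DESeq2, and they are named after their values were seen. Row 18998 ran from 2899 CPM through a median of 3544 to 4436 in wild-type and from 3940 through 4954 to 5471 in NDI1. After TMM scaling 7 of 8 NDI1 libraries lay above all wild-type ones, the exception being replicate 6. Its estimate was 1.31-fold (1.17 to 1.47), with an adjusted p of 0.0789 by edgeR and 0.00257 by DESeq2. Without NDI1 replicate 6 the edgeR adjusted p was 0.0268, at 1.36-fold. With runs of close mouse numbers as terms in place of the series, the edgeR adjusted p was 0.0367, at 1.36-fold. That last fit called 0.161% of all tested rows.

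Row 8561 ran from 581 CPM through a median of 753 to 940 in wild-type and from 499 through 578 to 710 in NDI1. It was at 0.783-fold (0.701 to 0.876), with an adjusted p of 0.117 by edgeR and 0.00683 by DESeq2. Row 5991 ran from 742 CPM through a median of 943 to 1229 in wild-type and from 636 through 780 to 920 in NDI1. It was at 0.814-fold (0.730 to 0.908), with an adjusted p of 0.157 by edgeR and 0.0286 by DESeq2. The ranges of the genotypes overlapped for both rows. The direction of these 3 rows was the same in the 33 alternative fits of each. Log2 fold changes ran from 0.34 to 0.45 for row 18998, from -0.44 to -0.25 for row 8561 and from -0.33 to -0.25 for row 5991. These fits reuse the same mice and the rows were picked by their values, so the shared direction is no separate support.

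The data left the difference least bounded for rows 35567 and 35580. Row 35567 was at 1.06-fold (0.356 to 3.17) and row 35580 at 0.990-fold (0.388 to 2.53), the widest intervals of the 200. In NDI1 mice row 35567 had 8664 CPM in replicate 7, against 223 to 1686 CPM in the other 7 libraries. Without replicate 7 the estimates were 0.422-fold (0.166 to 1.07) and 0.513-fold (0.220 to 1.20), both below equality with intervals that include it. In series 1 row 35567 had 641, 831, 1686, 1015 and 223 CPM in NDI1 replicates 1 to 5 and 2175, 751, 5607, 2198 and 1685 CPM in wild-type replicates 1 to 5. These overlap, and that series alone gave 0.350-fold (0.147 to 0.837, edgeR adjusted p = 0.660). Series 2 alone gave 2.87-fold (0.442 to 18.7). The other rows not bounded within 2-fold were row 8766 and row 21040, the latter at 1.32-fold (0.851 to 2.03).

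Differences between the 2 series of mice passed the test for more of these rows than differences between the genotypes did. Summed over the 200 rows, series 2 had 2.11 points more of all counts than series 1 within genotype (exact two-sided permutation test, p = 0.000846, adjusted over 5 shares 0.00212). Ranks 11 to 50 were 2.13 points higher (adjusted exact p = 0.000208), ranks 51 to 100 fell by 0.461 points (adjusted exact p = 0.0111), and the last 100 ranks fell by 0.265 points (adjusted exact p = 0.0151). Ranks 1 to 10 were 0.701 points higher, which did not pass (adjusted exact p = 0.0636). The stretch from row 17987 to row 18022 had a higher mean share in series 2 in both genotypes. In wild-type mice the mean share of that stretch was 8.46% in series 1 and 10.97% in series 2. In NDI1 mice it was 8.98% and 11.55%. The remaining members of the 200 held 50.98% and 50.37% in wild-type, and 50.49% and 50.61% in NDI1, with overlapping ranges. This split was not tested. In wild-type mice the 200 rows held 59.4 ± 0.634% in series 1 (SD, n = 5) and 61.3 ± 1.44% in series 2 (SD, n = 8). The rows were chosen by a wild-type mean over 8 libraries of series 2 and 5 of series 1, which leans towards rows high in series 2 and uses libraries compared here. With the 2 wild-type series weighted equally in the choice, the difference of the 200 rows was 2.1 points (exact permutation p = 0.000888, adjusted 0.00222). With rows chosen in wild-type series 1, which leans the other way, it was 1.999 points (exact permutation p = 0.00128, adjusted 0.00319), and ranks 11 to 50 were 1.78 points higher (adjusted exact p = 0.000416). Ranks 51 to 100 then fell by 0.144 points, which no longer passed (adjusted exact p = 0.456). In the NDI1 libraries alone, which the choice did not use, series 2 was 2.69 points higher for the 200 rows (exact permutation p = 0.0179, the smallest that 3 against 5 libraries allow, adjusted 0.0446). There ranks 51 to 100 were at -0.0951 points (adjusted exact p = 0.786) and the last 100 ranks at -0.542 points (adjusted exact p = 0.0595). Depth differs between the series as given above, and its part in these differences was not tested.

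By edgeR, 43 of the 200 rows (21.5%) differed between the series at an adjusted p under 0.05, beside 6.11% of all tested rows and 18% of the next 200 rows by level. Series 2 was higher for 36 of them (18%, beside 2.73% of all tested rows) and lower for 7 (3.50%, beside 3.39%). The choice of rows leans towards series 2 as said, and 35 higher and 7 lower were called among rows chosen with the series weighted equally, 33 and 8 among those chosen in wild-type series 1. The split also depended on scaling: with library totals alone, 24 were higher and 18 lower, beside 129 and 1011 of all tested rows. The median of all tested rows was then -0.10 on the log2 scale. Of those 42 rows, 31 were also called after TMM scaling. The changes were moderate, with a median log2 fold change of 0.36 among the rows called higher and -0.35 among those called lower. Past 1.5-fold were 6 rows, and no called row was past 2-fold.

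The largest changes upward were both in the stretch of 15 rows, of which 13 were called higher in series 2 and none lower. With TMM scaling, row 18006 had 1011 ± 85.03 CPM in series 1 (SD, 10 libraries) and 1868 ± 254 CPM in series 2 (SD, 11 libraries). Its lowest library in series 2 had 1566, above the highest of series 1 at 1136, and the log2 fold change was 0.92 (SE 0.069, edgeR adjusted p = 7.17e-08). Row 18010 went from 527 ± 86.2 to 887 ± 200, a log2 fold change of 0.77 (SE 0.12, edgeR adjusted p = 0.000412), with ranges that overlapped slightly. All 15 rows of the stretch had estimates above 0, from 0.19 to 0.92 on the log2 scale. The largest downward estimates did not pass: row 8766 at -0.87 (edgeR adjusted p = 0.107) and row 21040 at -0.69 (edgeR adjusted p = 0.186).

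Whether the NDI1 difference itself depended on the series was tested by their interaction. By edgeR 0 of the 200 rows passed, as did 0 of all tested rows (0.00%), and the smallest adjusted p among the 200 was 0.813. At an unadjusted p under 0.05 there were 9 members, or 4.50%, beside 5.60% of all tested rows. DESeq2 also called 0 members, beside 0.0253% of its rows. The median interval of the interaction reached 1.29-fold either side, and it lay within 1.5-fold for 130 rows and within 2-fold for 173. For the summed shares the adjusted exact p-values of the interaction ran from 0.302 to 0.604.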

How the data were processed

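Polyadenylated RNA from 21 livers was sequenced single-end, per the labels' protocols. Salmon 1.5.2, STAR 2.6.1d, Trim Galore 0.6.7 and build GRCm38 are listed per the submitters' processing notes. Which of the tools counted is not given in the sources used here, nor is the annotation. The values the authors deposited are raw counts per row, whole numbers with different totals, which may be rounded estimates. Columns were matched to mice by their names, genotypes come from the labels, and identifier series from the mouse numbers.

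CPM used each column's total. Comparisons used edgeR 4.0.16 in R 4.3.3 on the whole table: filterByExpr by genotype (11814 rows kept, holding at least 99.9% of each library), TMM scaling, robust quasi-likelihood F tests and Benjamini-Hochberg adjustment at 0.05. Intervals at 95% come from the fitted SE and a t distribution and can differ slightly from the F test. Shares were compared by exact permutation within series (41580 regroupings), with intervals by inverting that test. For the series the permutation was within genotype. The fits were tested on simulated counts that had no series difference and no rows moving together. That simulation therefore does not test the intervals where either is present. Libraries of a genotype differed by more than sampling noise (chi-square per row 11.3 to 132 over 106 pairs), so none were counted as duplicates. Intervals cover the spread between these mice, which includes that of library preparation, and counting error.

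The members and lists were chosen with earlier results of these data known. Named rows are the 10 most abundant, 2 on each side of the limit, the 3 most and 3 least variable, the 2 largest estimates each way by genotype and by series, and the 2 widest and 2 narrowest intervals; rows called by an alternative alone, and rows named as most alike, were added after their values were seen. Alternatives changed the scaling, filter, tool (DESeq2 1.42.0, limma 3.58.1 voom), covariates, libraries and the choice of rows. Fits on replicates 1 to 8 without the block and without runs lacking NDI1 mice, shares in series 2 of rows from series 1, the series comparison with other choices and left-out libraries, and counts at an unadjusted p were added after seeing the data.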

Additional observations from a re-analysis of the deposited data

Results flagged for a closer look

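In each of 39 measures (the shares, each library's distance from the wild-type median, and the named rows), the NDI1 libraries were searched for a lone library far from the rest. In 6 a lone library was found. A rate of 1 in 20 would give 1.95. That rate does not hold here, because many of the named rows were picked by these same values and some of them moved together. NDI1 replicate 7 had the largest distance from the wild-type median, 0.26 on the log2 scale, with the next library at 0.19. It was also highest for row 35567, at 8664 CPM with the next at 1686, and for row 35580, at 6784 CPM with the next at 1741. The same library was lowest for row 10581, at 946 CPM with the next at 1221. NDI1 replicate 6 was lowest for row 21040, at 2166 CPM with the next at 6742. NDI1 replicate 4 was highest for row 3949, at 774 CPM with the next at 681. Over all 200 rows, 16 had a lone NDI1 library, and in 11 of them it was replicate 7. A rate of 1 in 20 would give 10, but rows that move together are not separate tests. That replicate was the lowest NDI1 library for 64 of the 200 rows and the highest for 29.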

How the results depend on the processing

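The number of rows called by genotype was 0 except with DESeq2 (3), with identifier runs as terms (1) and on leaving out each library in turn (0 to 1, the 1 without NDI1 replicate 6). Rows bounded between 20% lower and 25% higher numbered 107 to 125 on leaving out each library. They numbered 88 in series 1 alone, 52 in series 2 alone and 53 there with rows chosen in wild-type series 1. Each series has fewer libraries than the main fit, and why series 2 gave fewer such rows than series 1 was not tested. Rows called by series ranged from 31 to 43 on leaving out each library, and were 29 without the low-count filter and 49 by DESeq2. The share of all tested rows called in these fits is not given here. Rows called by series were 42 with rows chosen at equal weight of the wild-type series and 41 with rows chosen in wild-type series 1. Between the series, leaving out each library gave 1.91 to 2.36 points for the 200 rows, and for ranks 1 to 10 0.511 to 0.848 points, past the threshold without NDI1 replicates 1 and 7 and wild-type replicates 2 and 10 (lowest exact permutation p = 0.0250, unadjusted). The other blocks kept their direction and an unadjusted exact p under 0.05 in these fits. The share difference of the 200 rows was 0.143 to 0.502 points on leaving out each library and reversed to -0.124 with no series term. On leaving out each library it ran from -0.345 to 0.0223 for ranks 1 to 10 (reversed without NDI1 replicate 7) and from -0.148 to 0.128 for ranks 51 to 100 (reversed without each of 7 libraries, up to -0.0037). For ranks 51 to 100 it also reversed with rows chosen over NDI1 libraries (-0.227) and in series 1 alone (-0.184). For ranks 11 to 50 it ran from 0.142 to 0.623 points on leaving out each library, and for the last 100 ranks from 0.0064 (without NDI1 replicate 4) to 0.127 (without NDI1 replicate 7), moving over 1.5 times also without NDI1 replicates 2, 5 and 6. For the last 100 ranks it reversed with rows chosen over all 21 libraries (-0.0918), over NDI1 libraries (-0.155), in series 2 alone (-0.177) and there with rows from wild-type series 1 (-0.114). For ranks 11 to 50 it was 0.956 points with rows chosen over NDI1 libraries (exact permutation p = 0.0463, unadjusted). No block passed with the rows as chosen above, and the cause of the reversals was not tested. The median CV was 13.9% to 15.0% on leaving out each wild-type library, and 12.1% and 12.7% within the series. With the replicate number as a block (replicates 1 to 8), 0 rows were called, 121 met the same bounds and 32 had an unadjusted p under 0.05. For that fit the shares of all tested rows are not given here. The numbers do not pair the libraries: the correlation of deviations was over 0.1 in 4 of 8 pairs (-0.051 to 0.19), and own numbers matched best in 2. Depth limits little here, with at least 1157 counts in each value; the number of mice and their spread do.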
